A study of Mus musculus with 6 samples.

Results

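The upstream peaks described here are the AGO2 target peaks that lay in the upstream 20% of a gene. Each peak was placed by its midpoint in the span of exactly 1 nuclear protein-coding RefSeq gene, and the span was read from its upstream end in the direction of the peak strand. Of 3292 target peaks in the series, 3070 lay in exactly 1 such gene, and 230 of these (7.49%, exact Clopper-Pearson 95% interval 6.59 to 8.48, counting error only) were upstream peaks. They fell in 191 of the 1716 genes with peaks (11.1%, 9.68 to 12.7). The cells were mouse embryonic stem cells grown with serum and LIF, and their genotype, Spy3-Ago2, gives AGO2 a peptide tag that SpyCatcher3 captures. There were 6 libraries, 2 of miRNAs and 2 of targets after pull-down of AGO2, and 2 of input RNA from lysate, all of this same genotype, with no untagged control among them. A single peak list stood for the whole series. It gave no height, no score other than 0 and no value per replicate, so a peak has a position, a strand and a width but no replicate error, and the depth behind it is unknown.

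AGO2 is the Argonaute protein that holds a microRNA (miRNA) and finds RNAs that pair with the miRNA's seed, bases 2 to 8. Pairing in the 3' untranslated region, at the downstream end of a messenger RNA, is the form of targeting best known to lower protein output, while sites in coding sequence and near the 5' end are usually held to be weaker. A gene span contains introns as well as exons, so its upstream part holds the 5' untranslated region, often the first coding exons, and in long genes much of the first intron. Exons and introns were not used here, so an upstream peak is not assigned to either.

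Sequence for the upstream peaks nearest to gene starts came from RefSeq windows on GRCm38.p6 (250 bases before to 50 bases after each listed start). Of the 230 upstream peaks, 11 overlapped such a window, 10 of them by at least 15 bases. The parts of these 10 peaks inside the windows are shown in the direction of the peak, at most 30 bases each, since they are the upstream peaks whose letters can be read. Capitals mark a run shared by the H3c10 and H3c11 peaks, or a 7-base match to the seed of an abundant miRNA in the Xpo1 peak.
H3c2, chr13:23752347-23752376, plus strand: tatagtgtcagtctattttcccttgttaaa
H3c10, chr13:21717648-21717677, plus strand: cgggtgttaccATGGCTCGTACTAAGCAGA
H3c11, chr13:21783352-21783381, minus strand: agtgtactgagATGGCTCGTACTAAGCAGA
H2ac6, chr13:23683915-23683944, minus strand: ttctgttacttacacagcactattactatg
H2bc12, chr13:22035875-22035893, plus strand: catttctacgccatgcctg
Rps24, chr14:24490721-24490750, plus strand: ttttcctcctctccagctccggcgccgtag
Rpl10a, chr17:28328584-28328613, plus strand: ttctttccggtttccgcggcagccgcagcc
Xpo1, chr11:23256009-23256038, plus strand: ccggttccgaGTTTGAGgcactaggaggag
Gga3, chr11:115603867-115603883, minus strand: accgggcggctgcaata
Cpsf4l, chr11:113709968-113709984, minus strand: cctctgtcccacacacc

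Histone genes gave 5 of these 10 sequences. The readable parts of the peaks of H3c10 and H3c11, which encode copies of histone H3, shared 19 bases. This run stops where the H3c10 window ends, so the shared stretch may be longer. It was found in 5 of the 32851 windows (0.0152%), those of H3c10, H3c11, H3c3, H3c6 and H3c8. Windows stop 50 bases after the start, so copies that hold the run further in are not counted. Over the 50 bases after their starts, H3c10 and H3c11 matched at 29 bases in the best ungapped alignment, and H3c2 matched either of them at 22. The treatment of reads that fit several copies is not given, so the division of peaks among histone copies is uncertain. Rps24 and Rpl10a encode proteins of the ribosome, and of the first 15 bases of these peaks 14 and 13 were C or T, against 6 to 11 for the other 8 peaks. The stretch for H2bc12 was read from the opposite strand of the window of its divergent neighbour H2ac12.

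Seed matches were sought on the peak strand in these 10 sequences over the whole overlap, 367 bases in all. The letters searched were those complementary to the 14 distinct seeds of 18 of the 20 most abundant miRNAs in the miRNA libraries: GTTTGAG for miR-290a-5p and miR-292a-5p, GTGCAAT for miR-92a-3p, TTGCCAA for miR-182-5p, TTTGCAC for miR-19a-3p and miR-19b-3p, TGCTGCT for miR-16-5p, CTTTGAT for miR-291a-5p, AGCACTT for miR-291a-3p and miR-295-3p, GGATCCG for miR-127-3p, GTGCCAT for miR-183-5p, GCACTTT for miR-17-5p and miR-20a-5p, ACTGTGA for miR-27a-3p, TTTTGAG for miR-294-5p, GTGCCAA for miR-96-5p and TACTTGA for miR-26a-5p. Some of these overlap in their letters. Of the 10 sequences, 1 held a match, the GTTTGAG of Xpo1, the gene of a nuclear export receptor. This match lay inside the gene span but before every listed start of Xpo1, so transcripts from those starts would not contain it. Its letters are complementary to the seed of miR-290a-5p, the most abundant miRNA of these cells at 23.8% ± 0.40 of the miRNA counts (SD, n = 2). They are also complementary to the seed of miR-292a-5p, at 2.34% ± 0.19 (SD, n = 2). Their mature sequences are shown with the shared seed in capitals.
miR-290a-5p: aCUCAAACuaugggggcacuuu
miR-292a-5p: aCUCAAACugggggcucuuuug
GTTTGAG occurred in 1.73% of all windows on the gene strand, and the 14 motifs ranged from 0.801% for GTGCAAT to 4.11% for TGCTGCT. Each share is for 1 motif, in windows longer than the parts read, which were 17 to 82 bases. These shares therefore give no expected number of matches for the 10 sequences. A match is a run of letters and not a shown site, and for the other 9 peaks these letters were not in the part that could be read.

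Within the upstream 20%, the peaks were spread evenly. The lowest 5% of the span held 55 peaks, the next 54, the next 53 and the last 5% before the threshold 68. Each of these bins held between 1.73% and 2.21% of the 3070 peaks, and their intervals overlapped. No further concentration toward the gene start was seen at this count. Upstream peaks lay on 20 chromosomes, from 2 of 70 peaks on chromosome 18 to 26 of 279 on chromosome 11, and 128 of the 230 (55.7%, 49.0 to 62.2) lay on the plus strand.

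**Figure D1:**
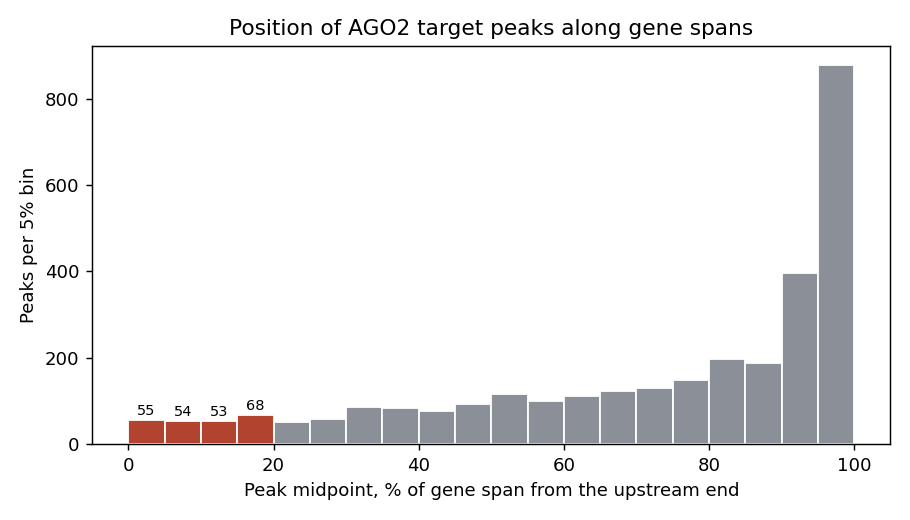
Number of peaks in each 5% bin of the gene span (vertical axis) against the position of the peak midpoint from the upstream end (horizontal axis), for 3070 peaks in 1716 genes. The 230 upstream peaks are in red with their counts of 55, 54, 53 and 68 per bin, and grey bars hold the other peaks.

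Genes with upstream peaks were long. Their median span was 50597 nt (quartiles 20601 and 114500), against 33805 nt (15181 and 74924) for the 1525 genes that had peaks but none upstream. The share of a gene class's peaks that lay upstream was lowest, at 4.91% (3.36 to 6.90, 31 of 631), in spans from 5000 to under 20000 nt. It was 6.41% (56 of 874) in spans from 20000 to under 50000 nt, 7.78% (59 of 758) from 50000 to under 100000 nt, and 11.1% (8.64 to 14.04, 62 of 557) at 100000 nt or more. The intervals of the lowest and the longest of these classes did not overlap. In spans from 2000 to under 5000 nt the share was 7.69% (4.46 to 12.2, 16 of 208), and 14 of these 16 upstream peaks were in ribosomal protein genes. Below 2000 nt it was 14.3% (5.43 to 28.5, 6 of 42), an interval that overlaps all the other classes, and the 6 peaks came from 5 histone genes. The shares of these families among all 208 and all 42 peaks were not counted. The counts of upstream peaks therefore do not set the families apart from other genes of such spans. Peaks of 1 gene are not independent of each other, and no test over peaks was run.

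**Figure D2:**
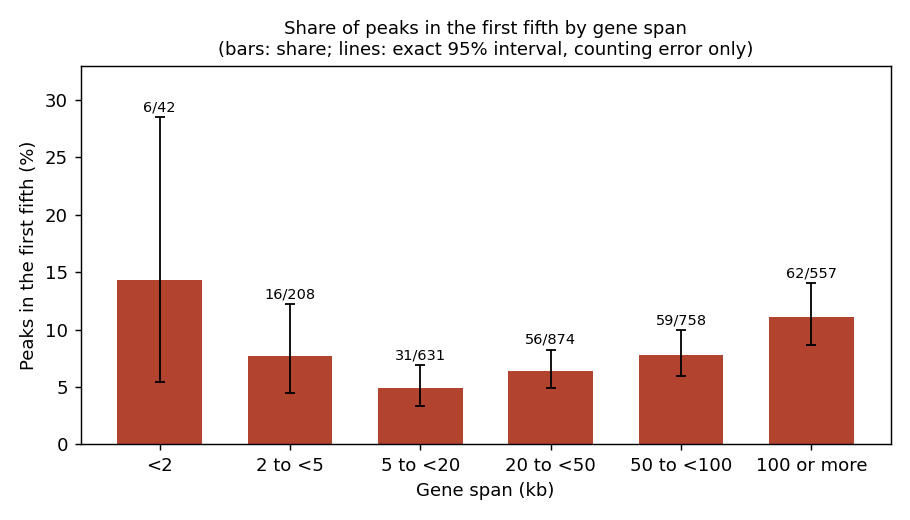
Share of peaks that lay in the upstream 20% (vertical axis, percent) for genes of 6 span classes (horizontal axis, kb), with exact 95% intervals as lines and upstream over all peaks above each bar. The share is 4.91% in the class from 5 to under 20 kb and 11.1% in the class of 100 kb or more.

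In the longest genes, an upstream peak could lie far from the upstream end. The median distance of an upstream peak from the upstream end was 3931 nt (quartiles 1212 and 10913), with 10 peaks (4.35%) within 100 nt, 31 (13.5%) within 500 nt, 77 (33.5%, 27.4 to 40.0) within 2000 nt and 168 (73.0%) within 10000 nt. Pcdh15, the gene of a cadherin of sensory hair cells, had its only peak 302488 nt into a span of 1553555 nt on chromosome 10 (peak 73398752 to 73398777). Immp2l, which encodes a subunit of the mitochondrial inner membrane peptidase, had peaks 158518 and 165248 nt into a span of 931528 nt. The single peaks of Tenm4, a teneurin gene, and Diaph2, a formin gene, lay 124167 and 116100 nt in. Dgkb, a diacylglycerol kinase gene with a span of 754071 nt, had its only peak at 10743 nt, which is 1.42% of the span. These 5 genes had the longest spans, and their upstream peaks were 26 to 39 nt wide.

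Histone genes held 7 of the 10 nearest peaks. Except for H2bc4, these genes had spans of 483 to 500 nt. The upstream 20% of such a span ends within 100 nt, so for them the choice of peaks fixes this closeness. H3c2 had its peak 20 nt from the upstream end, H3c11 at 24.5 and 79.5 nt, H3c10 at 29.5 nt, H2ac6 at 45.5 nt, H2bc4 at 60 nt and H2bc12 at 83 nt, all histone genes of chromosome 13. Rps24 followed histone genes with 62 nt, Zc3h12a, which encodes the RNase Regnase-1, with 67 nt and Eef1a1, the gene of a translation elongation factor, with 71.5 nt. These are the 10 upstream peaks within 100 nt. Lama1, the gene of a laminin chain, stood out among long genes, with an upstream peak 175.5 nt into a span of 125519 nt (0.140%), on chromosome 17 at 67697270 to 67697335.

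**Figure D3:**
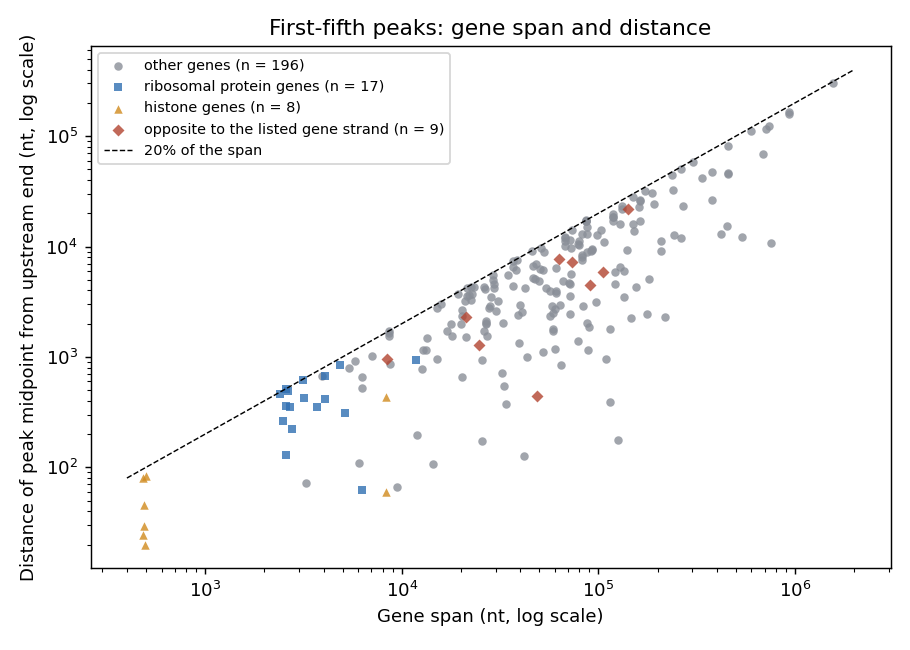
Distance of each upstream peak's midpoint from the upstream end (vertical axis, nt, log scale) against gene span (horizontal axis, nt, log scale), with 17 peaks of ribosomal protein genes, 8 of histone genes and 9 on the strand opposite to the listed gene strand marked apart from the other 196. All points lie below the dashed line at 20% of the span, which the choice of peaks fixes, and 6 histone peaks form the group at spans of 483 to 500 nt.

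The outer end of a span is not always the start in use. RefSeq windows list a strand and 1 or more starts for the genes of 181 upstream peaks, and for 167 of them a listed start lay at or before the peak on its strand. Measured from the nearest such start, the median distance was 3732 nt (quartiles 1062 and 10128). To the end of the span, the median for the 172 upstream peaks on the gene strand was 4310 nt. For 50 peaks in 42 genes a listed start was over 100 nt nearer than the end of the span. Fat1, the gene of a giant atypical cadherin, was the clearest case: its 4 upstream peaks lay 17190 to 19917 nt into the span but 82 to 2809 nt past the listed start. The upstream peak of Hif1a, the gene of an oxygen-regulated transcription factor, lay 9105 nt into the span and 2562 nt past a listed start. That of Sall1, a zinc finger factor gene of stem cells, lay at 1717 and 417 nt, and that of Kif14, a kinesin gene, at 1866 and 319 nt. For 5 peaks on the gene strand, in Xpo1, Mga, Pcdh15, Klf12 and Awat2, every listed start lay further downstream than the peak's midpoint.

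Upstream peaks were narrow. Their median width was 50.5 nt (quartiles 41.3 and 66.8, range 18 to 336), against 57 nt (44 and 81) for the 1566 peaks between 20% and 90% of the span and 63 nt (49 and 95) for the 1274 peaks in the last 10%. Peaks of at least 100 nt made up 6.96% of the upstream peaks (4.03 to 11.1, 16 of 230), 14.5% of the middle group (12.8 to 16.3) and 22.8% of the last 10% (20.6 to 25.2). Peaks under 50 nt made up 47.8% (41.2 to 54.5), 36.8% and 26.8% in the same order. The intervals for wide peaks did not overlap between any pair of the 3 groups. The list gives no read number for a peak, so widths could not be compared at equal depth.

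**Figure D4:**
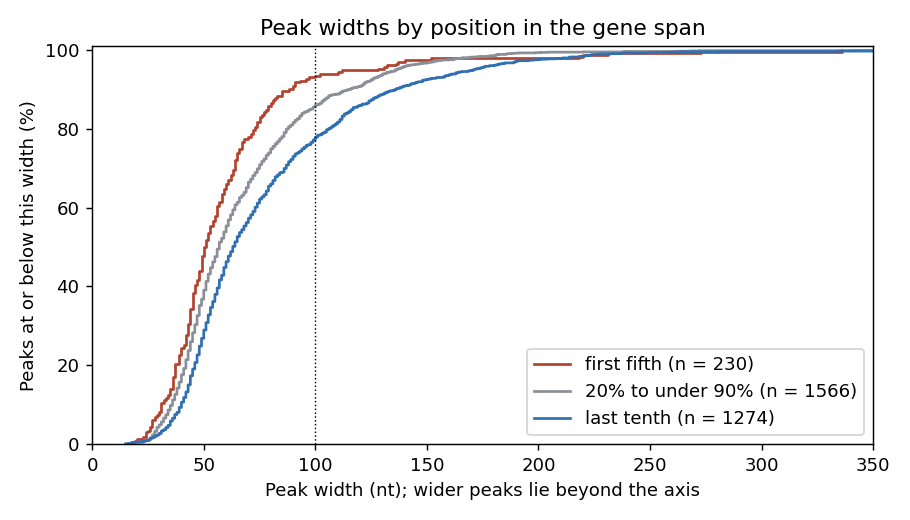
Percent of peaks at or below each width (vertical axis) against peak width in nt (horizontal axis, shown to 350 nt) for 230 upstream peaks, 1566 peaks from 20% to under 90% of the span and 1274 peaks in the last 10%. The red curve of the upstream peaks lies to the left, with a median of 50.5 nt, and the dotted line marks 100 nt.

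Upstream peaks ranged from 18 to 336 nt in width. Sec16a, which encodes a scaffold of the sites where vesicles leave the endoplasmic reticulum, had the 2 widest, 336 nt (chromosome 2, 26438773 to 26439108) and 273 nt (26441798 to 26442070), and a further one of 112 nt. Kif14 had one of 231 nt, Sp1, the gene of a transcription factor, one of 220 nt, and Tet1, the gene of a DNA demethylation enzyme, one of 218 nt. The narrowest were a peak of H3c11 with 18 nt, one of Cct6a, a chaperonin subunit gene, with 19 nt, and those of Nup88, a nuclear pore gene, with 20 and 23 nt. Next came those of Cpsf4l, Cwh43 and M1ap with 24 nt each. Each of the narrow peaks of H3c11, Cct6a and Nup88 had a wider peak of the same gene next to it.

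Most genes had a single upstream peak. Of the 191 genes, 166 had 1, 14 had 2, 8 had 3 and 3 had 4. Fn1, the gene of the matrix protein fibronectin, had 4 upstream peaks between 10143 and 12099 nt and a further 19 in the rest of its span. The 4 peaks of Fat1 lay within 2727 nt, midpoint to midpoint, and were 53 to 67 nt wide, and its only other peak lay at 77.0% of the span. The 4 of Fbrsl1, the gene of a fibrosin-like protein, lay within 384.5 nt of each other, between 16874.5 and 17259 nt. All 4 stood close under the threshold, at 19.5% to 19.9% of the span.

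The genes with 3 upstream peaks differed in how tightly these were placed. Nup88 had its 3 at 1977, 2038 and 2097.5 nt, and Ppp1r15b, which encodes a regulatory subunit that directs dephosphorylation of the initiation factor eIF2, had its 3 at 1544.5, 1632 and 1714 nt. Tet1 had peaks at 7491.5, 8078 and 8437 nt, and Cct6a at 1717, 1786 and 2516.5 nt. Rpl10a, a ribosomal protein gene with a span of 2563 nt, had peaks at 130.5, 361.5 and 507.5 nt. Those of Sec16a lay at 4359, 6552.5 and 7352.5 nt. Nedd4, a HECT ubiquitin ligase gene, had peaks far apart, at 2046.5, 8933 and 15021.5 nt. Snd1, whose product is a nuclease bound to RNA, had a close pair at 45846 and 46617.5 nt and the third at 82048.5 nt.

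The genes with 2 upstream peaks showed the same range. Close pairs were those of Jade1, a subunit gene of a histone acetyltransferase complex, at 3766 and 3923 nt, Ccdc30 at 9317 and 9480 nt, and P3h4 at 525 and 665 nt. The histone gene H3c11 had 2 within a span of 483 nt, and H2bc4 had peaks at 60 and 430 nt. Rps20 had peaks at 413.5 and 666.5 nt, 2610507B11Rik at 4984 and 5535 nt, Wdr5, a gene of histone methyltransferase complexes, at 3588 and 4255.5 nt, and Wac at 1185 and 2732 nt. Kdm5b, a histone demethylase gene, had peaks at 5590.5 and 9718.5 nt and Magi3 at 9034.5 and 11322 nt. The pairs farthest apart were those of Pitpnc1, a phospholipid transfer gene, at 11904.5 and 50760.5 nt, and of Msi2, the gene of the RNA-binding protein Musashi-2, at 26631.5 and 46977.5 nt. Of all upstream peaks, 29 (12.6%, 8.61 to 17.6) had the next peak of their gene within 200 nt, against 24.6% (22.3 to 27.1) of the peaks in the last 10%. The last 10% held 1274 peaks in a smaller part of the span than the 230 upstream peaks. Spacing was not adjusted for this density, and the part between is not compared here.

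**Figure D5:**
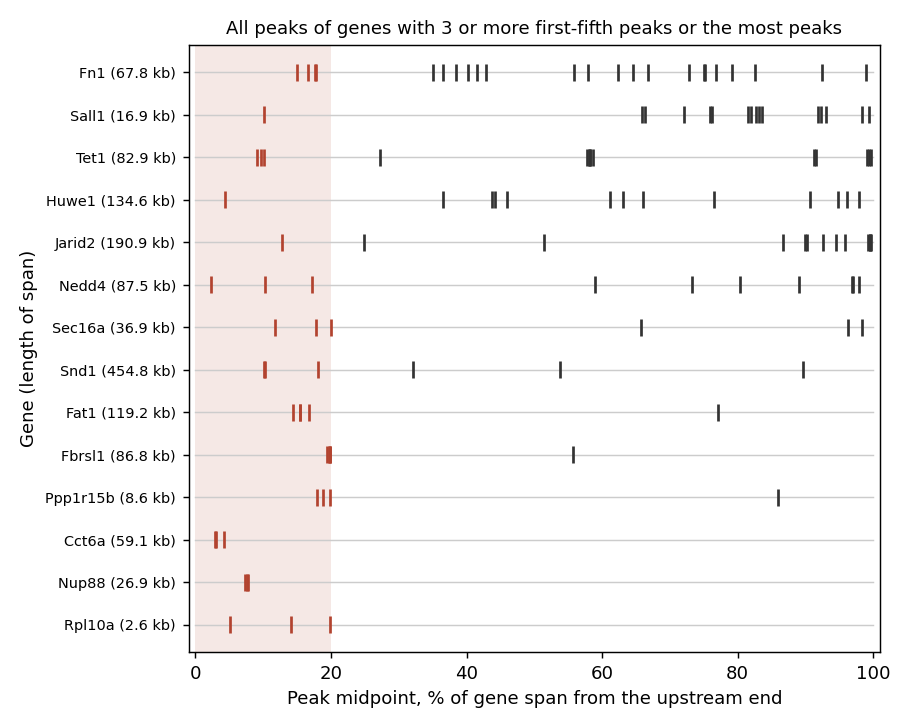
Midpoints of all peaks (ticks) along the gene span in percent from the upstream end (horizontal axis) for 14 genes, those with 3 or more upstream peaks and the 5 genes with upstream peaks that had the most peaks in all. The upstream 20% is shaded with its ticks in red. Cct6a, Nup88 and Rpl10a have no tick outside it, while Fn1 has 19.

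About as many genes had their only peaks upstream as had peaks elsewhere too. Of the 191 genes, 91 (47.6%, 40.4 to 55.0) had 1 peak in all, and 92 (48.2%, 40.9 to 55.5) had a peak outside the upstream 20%. The remaining 8 genes had several peaks, all upstream: Nup88, Cct6a and Rpl10a with 3 each, and P3h4, Pitpnc1, H2bc4, Wdr5 and Ccdc30 with 2 each. A gene that has more peaks has more chances of an upstream one, and 32 of the 94 genes with 5 or more peaks (34.0%, 24.6 to 44.5) had one, against 91 of the 1113 genes with 1 peak (8.18%, 6.63 to 9.94). In the 92 genes, the peaks elsewhere numbered 297, of which 92 lay in the last 10% of the span. A last-tenth peak was present in 45 of the 191 genes (23.6%, 17.7 to 30.2). The 91 genes with 1 peak and the 8 with all peaks upstream cannot have one, so these 45 are all among the 92.

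The 5 genes with the most peaks were Fn1, Sall1, Tet1, Huwe1 and Jarid2. Fn1 had 4 of its 23 peaks upstream and 2 in the last 10%. Sall1 had 1 of 16 upstream, 91 nt wide, with the next one at 65.8% of the span. Tet1 had 3 of 14 upstream and 5 in the last 10%. Huwe1, a giant HECT ubiquitin ligase gene, had 1 of 13 upstream, at 5956 nt, and 4 in the last 10%. Jarid2, a gene of the Polycomb repressive complex, had 1 of 13 upstream, 131 nt wide at 24315 nt, and 8 in the last 10%.

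Of 230 genes on 9 lists of stem cell, chromatin, RNA, signalling and growth genes, 126 had peaks and 20 had upstream peaks. Among all genes with peaks the share was 191 of 1716 (11.1%). The chromatin and DNA methylation list had 9 of 30 genes with peaks, among them Tet1, Kdm5b, Jarid2, Suz12 and Mtf2 of the Polycomb repressive complex, Kmt2b, a histone methyltransferase gene, Chd4, a remodeller gene, and Mga, a repressor gene. The upstream peaks of Mtf2 and Suz12 lay at 1007 and 2537 nt, those of Kmt2b and Mga at 2340 and 3151.5 nt, and that of Chd4 at 5513.5 nt. Kmt2b had no other peak, whereas Mga had 10.

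Other lists gave few. The pluripotency list had 1 of 16, Sall1, so that Sox2, Nanog, Klf4, Esrrb, Zfp42 and the other 10 listed genes with peaks had none upstream. The translation list had 3 of 15, Eef1a1, Eif4g1 and Eif4g2, with peaks at 71.5, 2637.5 and 2747 nt. The matrix list had 2 of 9, Fn1 and Lama1, and the HECT ligase list 2 of 5, Huwe1 and Nedd4. The signalling list had 1 of 19, Ctnnb1, the gene of beta-catenin, with a peak at 1535 nt and 6 peaks elsewhere. The cell cycle list had 1 of 12, E2f3, a gene of S-phase entry, whose only peak lay at 10294.5 nt. The splicing list had 1 of 15, Prpf8, the gene of a core spliceosome protein, with its peak at 3731.5 nt. The small RNA list had 0 of 5, with Ago1, Ago2, Tnrc6a, Tnrc6b and Tnrc6c among the genes whose peaks all lay elsewhere. The lists are short and no list was tested, so nothing is claimed for any of them.

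Stem cell markers and markers of other cells were looked up among all 3070 peaks in exactly 1 nuclear protein-coding gene. Of 8 stem cell genes 6 had a peak and 0 had an upstream one. Of the 1716 genes with peaks 191 had an upstream one, so 0 among so few genes is not a result. None of the 33 markers of fibroblasts or feeder cells, primitive endoderm, trophoblast, neural cells and mesoderm had such a peak. Of the 21900 protein-coding genes only 1716 had one, so nothing is claimed from this about which cells were present.

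Cytosolic ribosomal protein genes gave 17 upstream peaks in 14 genes, in genes with short spans. The 14 spans had a median of 3156 nt, and the distances ranged from 62 nt in Rps24 to 938.5 nt in Rps15a with a median of 413.5 nt. The upstream share of all peaks in this family was 14.9% (8.93 to 22.8, 17 of 114), against 7.49% (6.59 to 8.48) of the 3070 peaks as a whole. The 3070 include these 114, and peaks of the same gene are not independent. The family was also chosen for naming once its values had been seen. The 2 intervals are therefore not a test of a difference. Rps10 had the widest of the 17 upstream peaks in this family with 152 nt, and its only one. Rps15a and Rpl36a also had no other peak, while Rpl14 had 5 elsewhere. Histone genes gave 8 upstream peaks in 6 genes, 27.6% of their 29 peaks (12.7 to 47.2). Without both families, 205 upstream peaks remained, with a median width of 50 nt, a median distance of 4532 nt and a median gene span of 60204 nt.

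A few upstream peaks lay on the strand opposite to their gene. Of the 181 upstream peaks in genes with a listed strand, 172 were on it and 9 were not (4.97%, 2.30 to 9.23). Of the 2283 other peaks with a listed strand 15 were opposite (0.657%, 0.368 to 1.08). For such a peak the end taken as upstream is the gene's downstream end. The 9 peaks lay in Appl2, Ptrh2, Kif2a, Slc35a1, Rbks, Ankrd17, Il12rb2, Rad52 and Pik3c2a, were 36 to 73 nt wide, and each was the only peak of its gene.

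These opposite-strand peaks mostly followed the end of another gene. For 7 of the 9 (77.8%, 40.0 to 97.2) the nearest protein-coding gene with a listed strand that ends before the peak on the peak strand ended within 10000 nt, against 21 of the 172 upstream peaks on the gene strand (12.2%, 7.72 to 18.1). RefSeq windows list a strand for 17492 of the 21900 protein-coding genes, and the others were left out of this search. A gene without a listed strand lay within 10000 nt on that side, with no listed one there, for 0 of the 9 and 6 of the 172 peaks. The limit of 10000 nt was chosen with the data in view. The 9 peaks lay toward the downstream end of their genes and the 172 toward the upstream end. No share was computed for downstream gene ends in general, so the comparison does not separate strand from position. The peak in Il12rb2 lay 1161 nt past the end of Serbp1, the gene of an RNA-binding protein. The peak in Ptrh2 lay 2847 nt past Cltc, the clathrin heavy chain gene, that in Rad52 3435.5 nt past Wnk1, a kinase gene, and that in Appl2 4007 nt past Washc4. Those in Slc35a1, Kif2a and Rbks lay 4381.5, 5372.5 and 9096 nt past Rars2, Dimt1 and Mrpl33. The peaks in Ankrd17 and Pik3c2a were 665024 and 237956 nt past the nearest end among genes with a listed strand, and in both cases a gene of unlisted strand lay nearer, at 24343 and 34783.5 nt. For the 49 upstream peaks without a listed gene strand the same check of sense or antisense could not be made.

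A noncoding RefSeq gene also covered 15 of the upstream peaks: a long noncoding RNA for 13, a small nucleolar RNA for 2 and a pseudogene for 1, with 1 peak counted under both of the former. The peak in Rpl23a (chromosome 11, 78183060 to 78183123) lay on the small nucleolar RNA gene Snord42b, 492.5 nt into the span. The peak in Rtl1, a retrotransposon-derived gene, was on the plus strand and lay on the imprinted noncoding gene Meg3. No strand was listed for Rtl1, so this peak could be antisense to it, at its downstream end. The 3 upstream peaks of Tet1 lay on the noncoding Gm51805, and that of Macf1 on the pseudogene Gm35241. The opposite-strand peaks in Rbks and Pik3c2a lay in the long noncoding RNA genes Gm38424 and Gm10589. For the 9 of the 15 on the gene strand and the 4 without a listed strand, position alone does not tell the coding from the noncoding transcript.

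Just inside the threshold of 20% were a peak of Fbrsl1 at 19.89% of the span, one of Wdr5 at 19.90% and the 336 nt peak of Sec16a at 19.95%. Just outside were the only peaks of Tut4, a uridylyltransferase gene, at 20.01%, of Dmxl1 at 20.07% and of Eif5, a translation initiation factor gene, at 20.29%.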

How the data were processed

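RNA bound to Spy3-AGO2 was isolated on a HaloTag-SpyCatcher3 resin, size-selected on a gel and sequenced, per the labels' protocols. The authors deposited 1 peak list for the series, with positions, strand and a score that was 0 for every peak, and raw counts per mature miRNA for each of the 2 miRNA libraries. Per the submitters' processing notes, the build was mm10 and the tools, whose roles are not stated, were STAR 2.5.2a, Bowtie2 2.4.2, cutadapt 2.10, UMI-tools, deepTools 3.1.3 and DESeq2 1.36.0. How peaks were called, at what threshold and whether against the input is not stated, and a different threshold would change every count. The 2 miRNA libraries held 12562727 and 22908172 counts, after a last row naming no miRNA, with 0 counts, was left out. They serve only to rank miRNAs.

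The midpoint of each peak was placed in the gene spans of RefSeq GRCm38.p6, the assembly of mm10 (49997 genes, 21900 protein-coding). Gene strand and starts came from the RefSeq table of start windows, where listed, and 606 of the 3070 peaks had none. Coordinates count from 1. Shares have exact 95% Clopper-Pearson intervals, which cover counting error only. With no value per library, no test was run. On simulated data, 600 of 600 peaks placed at known positions came back with their gene and distance. Python 3.11.15, numpy 2.4.6, pandas 2.3.3, scipy 1.17.1 and matplotlib 3.10.9 were used.

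The members, lists and rule for names were chosen with earlier results of these data known. The rule took genes with 2 or more upstream peaks, the 10 nearest and 5 farthest peaks, the 5 widest and 5 narrowest, the 5 shortest and 5 longest spans, the 5 genes with the most peaks, listed genes with an upstream peak and the 3 peaks on each side of the threshold. Ribosomal protein and histone genes, opposite-strand peaks and their neighbours, genes with noncoding overlaps or nearer listed starts and those with printed sequence were chosen for naming once their values had been seen. Some genes of these groups are not reported here. The alternatives were other positions of the peak, other thresholds, spans, widths, strands and gene sets, joined peaks and, added after seeing the data, the nearest listed start and the removal of ribosomal protein and histone genes, of opposite-strand peaks or of genes with no listed strand.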

Additional observations from a re-analysis of the deposited data

How the results depend on the processing

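Of 106 values recomputed under 10 planned and 4 added alternatives, 99 stayed within 1.5 times the count or within the 95% interval of the share or median. With the threshold at 10% of the span, 109 peaks (3.55%) in 100 genes remained, with a median distance of 2046.5 nt; at 30% the share was 11.1% and the median distance 5035.5 nt. Both follow from the threshold itself. Keeping only peaks on the listed gene strand left 51 peaks within 2000 nt of the upstream end instead of 77. Leaving out only the peaks in genes with no listed strand left 54, and leaving out only the opposite-strand peaks left 74. The median width, the median gene span and the share of genes with a peak elsewhere stayed within their intervals under each of the 13 alternatives run for them. No stricter threshold on peaks could be tried, since the score was 0 throughout, and no replicate could be left out. No paired analysis was possible because the peak list has no value per replicate. Depth per peak is unknown, which limits every statement about width.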
